A study of Macaca mulatta with 7 samples.

Results

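The genes described here are 10 genes of the chondroitin sulfate matrix and the perineuronal net: the lecticans VCAN, BCAN, NCAN and ACAN, the membrane proteoglycans CSPG4, CSPG5 and PTPRZ1, the link protein HAPLN1, and the tenascins TNR and TNC. They were taken by symbol, and all 10 were found among the 28966 symbols of the matrices. Their unique molecular identifiers (UMIs) were read in single-nucleus RNA-seq of the rhesus monkey (Macaca mulatta) spinal cord, in 7 libraries with 1 library per group. Of these, 3 were prepared from an intact cord at 5 years of age (cervical, thoracic and lumbar). The other 4 were prepared from lumbar cord, distant from and below a complete transection of the thoracic cord, dissected 7, 14 and 30 days (dpi) or 6 months (mpi) after the injury. The injured animals were 7 years old at 7 and 14 dpi and 6 years old at 30 dpi and 6 mpi. All were adult female monkeys, and per the study's methods 1 animal of each group was sequenced, so the 3 intact segments came from 1 cord. Time point, animal, age and library preparation cannot be told apart, groups were therefore not tested against each other, and intervals cover counting error only.

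Lecticans are secreted proteoglycans that carry chondroitin sulfate chains and bind hyaluronan, the long sugar chain of the space between cells. Link proteins such as HAPLN1 lock a lectican to hyaluronan, and tenascins join lecticans to one another. Around some neurons these parts condense into the perineuronal net, a mesh on the cell body and proximal dendrites that limits plasticity, while chondroitin sulfate made by glia near a lesion is known to hinder the growth of axons.

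VCAN (versican) and HAPLN1 lie next to each other on chromosome 6 of Mmul_10, VCAN at chr6:80264135-80375099 on the plus strand and HAPLN1 at chr6:80429407-80514257 on the minus strand. Their 3′ ends face each other across 54.307 kb with 0 protein-coding genes between them. BCAN (chr1:94306554-94324515) and TNR (chr1:32572698-33119946) share chromosome 1, and ACAN (chr7:67588642-67628335) and CSPG4 (chr7:52809297-52849703) share chromosome 7. NCAN is at chr19:18806211-18847358, CSPG5 at chr2:103575571-103594864, PTPRZ1 at chr3:148281089-148473558 and TNC at chr15:27702188-27800688. Spans run from 17.962 kb for BCAN to 547.249 kb for TNR, and the longest transcripts have from 5 exons (CSPG5, HAPLN1) to 30 (PTPRZ1).

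The 200 bases before the start site are given for 4 members on which the results turn: CSPG4 and VCAN, which were highest in oligodendrocyte precursor cell (OPC)-like nuclei, HAPLN1, which was lower in injured OPC-like nuclei, and TNC, which was higher in injured astrocyte-like nuclei. Sequences are those of RefSeq for Mmul_10, 5′ to 3′ on the strand of the gene, at chr7:52849704-52849903 (minus), chr6:80263935-80264134 (plus), chr6:80514258-80514457 (minus) and chr15:27701988-27702187 (plus) in this order. Capitals mark a match to 1 of the motifs searched on both strands: CAGCTG (an E-box), ACAAAG (SOX), TTGGCA (NFI) or TGANTCA (AP-1).
CSPG4: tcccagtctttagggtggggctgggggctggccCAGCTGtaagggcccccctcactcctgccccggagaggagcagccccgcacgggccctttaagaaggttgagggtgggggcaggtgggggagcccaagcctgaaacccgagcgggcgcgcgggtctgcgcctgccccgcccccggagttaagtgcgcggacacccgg
VCAN: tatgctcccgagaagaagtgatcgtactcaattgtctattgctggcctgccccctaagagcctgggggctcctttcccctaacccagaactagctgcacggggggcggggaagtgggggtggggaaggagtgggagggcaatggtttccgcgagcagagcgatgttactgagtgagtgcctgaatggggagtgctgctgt
HAPLN1: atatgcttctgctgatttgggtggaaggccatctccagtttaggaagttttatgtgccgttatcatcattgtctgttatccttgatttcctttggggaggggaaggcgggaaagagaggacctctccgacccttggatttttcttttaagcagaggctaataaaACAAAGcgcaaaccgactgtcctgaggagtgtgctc
TNC: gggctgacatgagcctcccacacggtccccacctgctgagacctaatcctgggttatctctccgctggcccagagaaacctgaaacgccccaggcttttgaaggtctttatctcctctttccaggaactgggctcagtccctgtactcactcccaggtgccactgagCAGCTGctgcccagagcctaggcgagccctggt
CAGCTG was found in CSPG4 and TNC, 2 of the 10 members, and in 9.76% of 20783 promoter windows of the same length. ACAAAG was found in HAPLN1 (1 of 10 members, 9.86% of windows) and TGANTCA in CSPG5 (1 of 10, 3.97%), and TTGGCA in 0 of 10 (7.37%). A match is a description of the letters and not a binding site.

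The matrices held 69332 barcodes and 777183139 UMIs, from 45079131 UMIs at 6 mpi to 150987900 in intact lumbar cord. After filters 63730 nuclei remained (5637 to 11002 per library, with median UMI counts of 3191 to 7355), and 489 barcodes occurred in more than 1 library. Clusters were named from markers that hold none of the 10 genes, and the 10 genes were also left out of the clustering. The name microglia-like rests on a joint list of microglia and macrophage markers and does not separate these cells. Between 1.5 and 4.59% of the nuclei of a library stayed unnamed. Summed OPC markers, with 7 of 7 detected, were 14313 to 18825 UMIs per 1000000 (CPM) in OPC-like nuclei of the 7 libraries, and summed astrocyte markers 5740 to 12277 CPM in astrocyte-like nuclei. The most common microglia-like cluster was a different one in each of the 4 injured libraries, led by ABCA4, IL21R, CCL4L1 and CDH1 in order of time, and none of these was that of the intact libraries (MRC1-led). Other clusters were shared, as the ABCA4-led one by 7 dpi and 6 mpi and a TGM2-led one by 14 and 30 dpi, and injured astrocyte-like nuclei formed other sub-clusters than intact ones. Injured libraries held few astrocyte-like nuclei, 98, 254, 145 and 111, against 904, 1685 and 977 in the intact libraries, and their values carry wider intervals. Levels are UMIs of a class in a library per 1000000 UMIs of that class and library. They depend on the 3′ end of each gene and are not compared between genes.

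Of the 10 genes, 6 had their highest level of 5 classes in OPC-like nuclei in all 7 libraries (VCAN, BCAN, CSPG4, CSPG5, PTPRZ1 and TNR). Of the 9 genes with a mean of at least 10 CPM in some class, all but ACAN, this is 6 of 9, against 3.93% of 11896 genes with such a mean. When each nucleus was named alone by its own markers instead of by its cluster, BCAN and PTPRZ1 were no longer highest in OPC-like nuclei in every library. NCAN and TNC, 2 of 9, were highest in astrocyte-like nuclei in all 7 libraries, as were 9.41% of genes. ACAN was highest in neuron-like nuclei in 5 of 7 libraries and HAPLN1 in 4 of 7. None was highest in oligodendrocyte-like or microglia-like nuclei. OPC-like nuclei held 73.6 to 82.0% of the VCAN UMIs of a library, and neuron-like nuclei 72.9 to 94.2% of its ACAN UMIs. Such shares grow with the number and depth of the nuclei of a class. In intact lumbar cord neuron-like nuclei held 90910697 of the 141804587 UMIs of all kept nuclei.

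**Figure D1:**
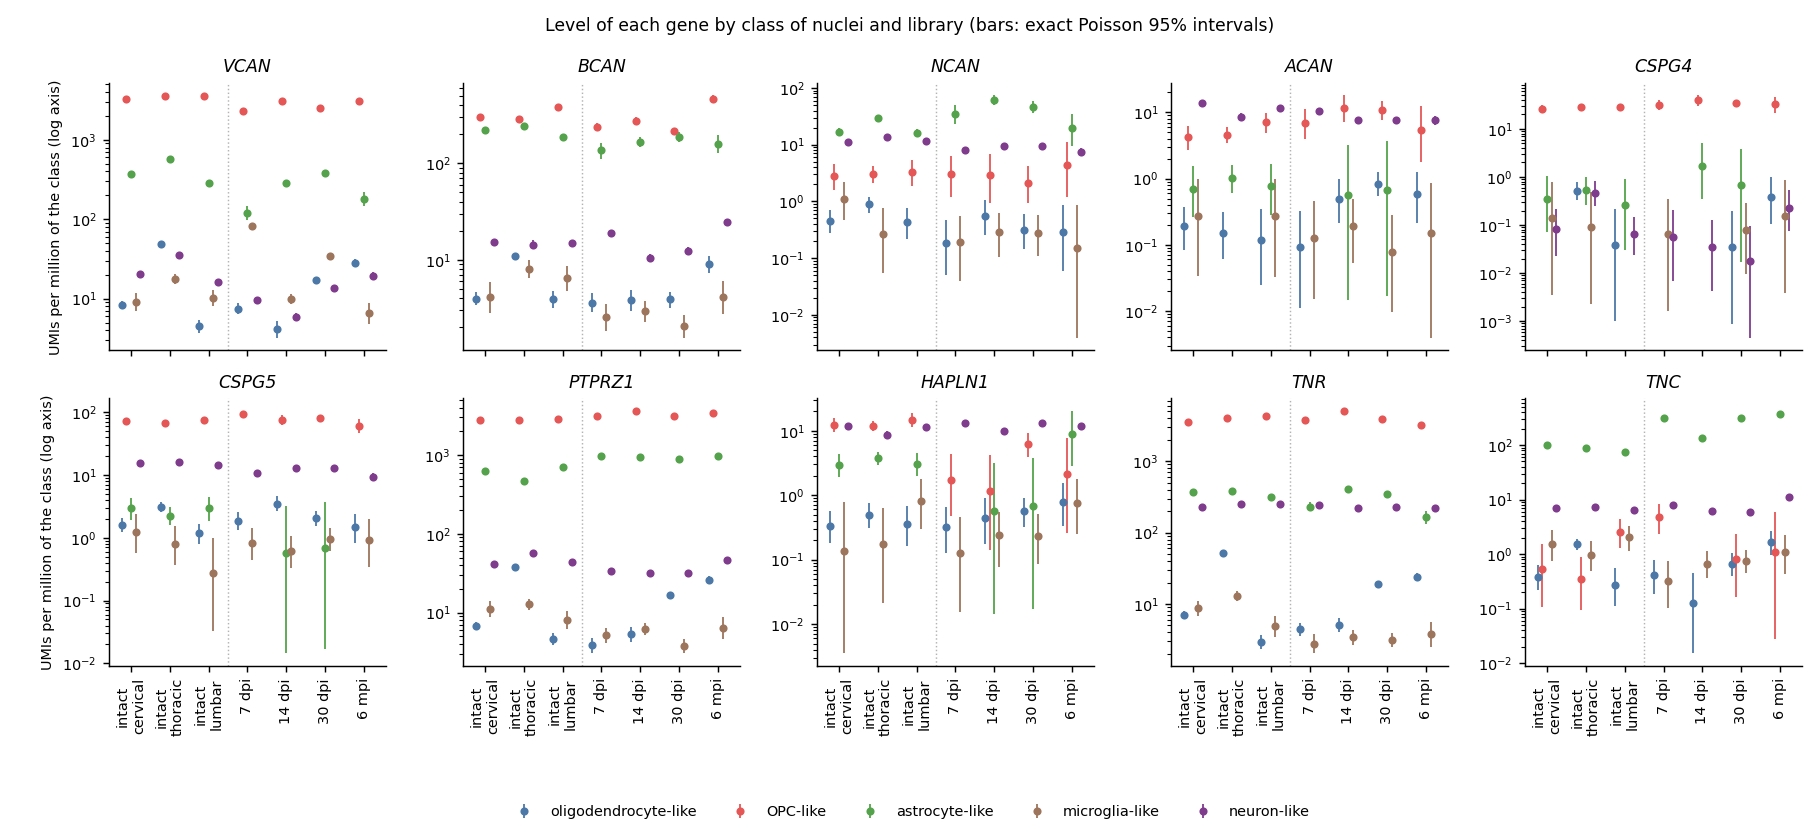
Level of the 10 genes in UMIs per 1000000 (log axis) in 5 classes of nuclei, with 1 point for each of the 7 libraries and 95% Poisson intervals. Levels of 0 are not drawn. VCAN, BCAN, CSPG4, CSPG5, PTPRZ1 and TNR are highest in OPC-like nuclei (BCAN and PTPRZ1 not in every library when each nucleus is named alone), NCAN and TNC in astrocyte-like nuclei.

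VCAN, a large lectican of white matter, stood at 3229, 3565 and 3576 CPM in OPC-like nuclei of intact cervical, thoracic and lumbar cord. At 7, 14 and 30 dpi and 6 mpi it stood at 2333, 3125, 2543 and 3039 CPM. All 4 injured libraries lay below the 3 intact ones, at 0.652 (95% interval 0.632 to 0.673), 0.874, 0.711 and 0.85 of the intact lumbar level, and these ratios stayed below 1 under each of the 8 alternatives run for them. OPC-like nuclei were 6.19 to 19.5 times above astrocyte-like nuclei, the next class, whose VCAN levels were 375, 576 and 284 CPM in the intact libraries and 120, 284, 387 and 180 CPM in the injured ones. The astrocyte-like levels of both groups overlapped. Neuron-like nuclei had 20.7, 35.9 and 16.3 CPM in intact cord and 9.51, 5.96, 13.8 and 19.5 CPM after injury, which is 0.191 to 1.01% of the OPC-like level in the same library, below the median of 7 OPC markers there (3.77 to 4.84%).

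In microglia-like nuclei, VCAN stood at 9.14, 17.8 and 10.3 CPM in intact cervical, thoracic and lumbar cord, and at 81.2 CPM (1279 UMIs), 9.90 CPM, 34.8 CPM (882 UMIs) and 6.58 CPM in the 4 injured libraries. The libraries of 7 and 30 dpi lay above the 3 intact ones, 7.91-fold (6.28 to 10.1) and 3.39-fold (2.68 to 4.35) over intact lumbar cord, and those of 14 dpi and 6 mpi did not. At 7 dpi this level was 3.48% of the OPC-like level, where PTPRZ1 and TNR, which OPC-like nuclei also carried at high levels, stood at 0.163 and 0.0748%. The 7 OPC markers there ranged from 0 to 26.9% of their OPC-like level with a median of 0.316%. The VCAN share lay above that median and below the highest marker. The highest marker stood at 20.9 to 27.6% in microglia-like nuclei of the 7 libraries, so this range is too wide to place the VCAN share. The part of RNA from OPCs in the VCAN level was not tested. Summed fibroblast markers in microglia-like nuclei were 0.671 to 2.49 CPM. Dividing microglia-like nuclei, led by MKI67 and numbering 444 at 7 dpi, had 139 CPM of VCAN, and without them the level at 7 dpi was 68.1 CPM. Among the other clusters, VCAN ran the other way in a small FCRL1-led cluster. Its leading genes were FCRL1, KMO, FN1, FCGR3, CFD, S100A4, FGR, MS4A1, IGHM and PILRA. Whether its make-up differed between libraries was not tested. VCAN there had 147, 210 and 270 CPM in 15, 39 and 21 nuclei of the intact libraries and 61.8, 26.5, 48.0 and 0 CPM in 45, 38, 16 and 3 nuclei of the injured ones.

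Oligodendrocyte-like nuclei had 49.4 CPM of VCAN in intact thoracic cord and between 4.11 and 28.0 CPM in the other 6 libraries. A PTN-led cluster of 791 nuclei set this difference, since without it the levels were 2.79 to 8.80 CPM in the 7 libraries. In thoracic cord its VCAN, PTPRZ1 and TNR levels were 14.9, 15.3 and 15.2% of the OPC-like ones, and its median OPC marker 17.1%. Whether these nuclei are differentiating cells or hold RNA of other cells was not tested.

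BCAN (brevican), a lectican of the adult nervous system that both OPCs and astrocytes make, had 302, 290 and 388 CPM in intact OPC-like nuclei and 241, 277, 218 and 463 CPM in injured ones. Astrocyte-like nuclei had 222, 244 and 188 CPM in intact cord and 136, 168, 186 and 160 CPM after injury. The OPC-like level was above the astrocyte-like one by 1.17 to 2.89 times, with intervals apart in 6 of 7 libraries, the smallest margin of the 6 genes that were highest in OPC-like nuclei, and this order was lost in at least 1 library when each nucleus was named alone. Neuron-like nuclei had 10.5 to 24.5 CPM, with no separation of injured from intact libraries.

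NCAN (neurocan) is a lectican known to be made by neurons in development and by reactive astrocytes. Astrocyte-like nuclei had 17.0, 29.6 and 16.2 CPM in intact cervical, thoracic and lumbar cord, and 35.3 CPM (28 UMIs), 61.4 CPM (108 UMIs), 45.9 CPM (68 UMIs) and 19.4 CPM (11 UMIs) at 7, 14 and 30 dpi and 6 mpi. The first 3 injured libraries were above the 3 intact ones, at 2.18-fold (1.40 to 3.31), 3.8-fold (2.91 to 4.94) and 2.83-fold (2.08 to 3.83) over intact lumbar cord, and the library of 6 mpi lay within the intact range. At 7 dpi the value was 4.24-fold (2.29 to 7.48, 17 UMIs) in the ITPRID1-led cluster of astrocyte-like nuclei described further on, and 1.12-fold (0.537 to 2.12, 11 UMIs) in the SLC14A1-led one, where the call was lost. In neuron-like nuclei the order was the other way, with 11.1, 13.6 and 11.5 CPM in intact and 8.10, 9.35, 9.44 and 7.44 CPM in injured libraries.

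ACAN (aggrecan), the lectican that marks perineuronal nets, had 13.8, 8.48 and 11.7 CPM in neuron-like nuclei of intact cord and 10.6, 7.68, 7.79 and 7.62 CPM in the injured libraries. The libraries of 14 dpi, 30 dpi and 6 mpi were below all 3 intact ones, and that of 7 dpi lay within them. OPC-like nuclei had 4.25 to 11.7 CPM, on 5 to 53 UMIs a library, and the neuron-like level was above it by its interval in 3 of 7 libraries. Astrocyte-, oligodendrocyte- and microglia-like nuclei had at most 1.02 CPM.

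CSPG4 (NG2), the transmembrane proteoglycan by which OPCs are commonly recognised, had 26.4, 28.4 and 28.3 CPM in intact OPC-like nuclei and 31.4, 39.3, 33.8 and 32.4 CPM in injured ones. The injured libraries were all higher, and their intervals overlapped the intact ones on 30 to 126 UMIs. No other of the 5 classes passed 1.71 CPM. CSPG5 (neuroglycan C), a transmembrane proteoglycan of neurons and OPCs, had 72.7, 66.0 and 74.2 CPM in intact and 92.2, 75.1, 80.6 and 60.4 CPM in injured OPC-like nuclei. In neuron-like nuclei CSPG5 was lower in each injured library, with 15.7, 16.3 and 14.4 CPM in intact cord against 10.6, 12.7, 12.7 and 9.29 CPM.

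PTPRZ1, a receptor tyrosine phosphatase whose extracellular part carries chondroitin sulfate and binds pleiotrophin, stood at 2822, 2801 and 2841 CPM in OPC-like nuclei of intact cord. At 7, 14 and 30 dpi and 6 mpi it had 3157, 3577, 3133 and 3466 CPM, above the narrow intact range in all 4 libraries, by 1.11-, 1.26-, 1.10- and 1.22-fold over intact lumbar cord. In astrocyte-like nuclei it had 622, 463 and 700 CPM in intact cord and 972, 932, 885 and 975 CPM after injury, again above in all 4, by 1.39-fold (1.29 to 1.5), 1.33-, 1.26- and 1.39-fold. The injured libraries thus lay above the intact ones in both of the classes with the highest PTPRZ1 level, and the intact astrocyte-like levels themselves differed between segments. An unnamed ST18-led sub-cluster of astrocyte-like nuclei had 281 CPM of PTPRZ1, and 280 of its 353 nuclei came from intact thoracic cord. Its part in the difference between segments was not tested. The higher PTPRZ1 level of the injured libraries depended on how nuclei were named. When each nucleus was named alone by its own markers instead of by its cluster, the PTPRZ1 log2 ratios at the 4 time points were 0.01, -0.64, -0.07 and -0.25 in OPC-like and 0.09, 0.13, -0.38 and -0.68 in astrocyte-like nuclei. Nuclei that lay in neuron-like clusters then gave 20.5 to 77.6% of the UMIs of the OPC-like class of a library, and 0.259 to 21.3% of those of the astrocyte-like class.

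HAPLN1 had 12.4 CPM (70 UMIs), 11.9 CPM (137 UMIs) and 14.8 CPM (71 UMIs) in OPC-like nuclei of intact cervical, thoracic and lumbar cord. In the injured libraries it had 1.72 CPM (4 UMIs), 1.17 CPM (2 UMIs), 6.18 CPM (23 UMIs) and 2.16 CPM (2 UMIs). All 4 were below the intact ones, with ratios to intact lumbar cord of 0.116 (0.0309 to 0.312), 0.0793 (0.00942 to 0.297), 0.418 (0.249 to 0.676) and 0.146 (0.0173 to 0.547). After thinning each nucleus to 1000 UMIs, 1.14, 1.30 and 1.76% of intact OPC-like nuclei had a UMI, against 0.289% at 30 dpi and 0 at 7 dpi, 14 dpi and 6 mpi, where 0 allows up to 0.809, 1.26 and 1.34%. Without thinning the shares were 7.42, 6.22 and 7.85% in intact and 1.08, 0.840, 5.20 and 0.893% in injured libraries, at median depths of 5885 to 7172 and 3713.5 to 8692.5 UMIs, and in microglia-like nuclei, at medians of 2405 to 5809 UMIs, 0.0569 to 0.285%. Summed neuron markers in OPC-like nuclei moved with HAPLN1, at 467, 589 and 599 CPM in intact and 213, 205, 425 and 245 CPM in injured libraries, with 7 of 7 detected except 1 at 0 at 30 dpi and at 6 mpi. These sums compare with 2941 to 3695 CPM in neuron-like nuclei, and their part in the HAPLN1 difference was not tested. When each nucleus was named alone by its own markers, the HAPLN1 log2 ratios were -0.35, -0.18, 0.11 and -0.24 in place of -3.10, -3.66, -1.26 and -2.78. Nuclei of neuron-like clusters then held 68.0% of the UMIs of that class in intact lumbar cord and 67.2 to 77.6% in the injured libraries. In intact cord the HAPLN1 level of neuron-like nuclei was 96.1, 72.9 and 76.1% of the OPC-like one. Neuron-like nuclei themselves had 11.9, 8.66 and 11.3 CPM in intact and 13.2, 9.99, 13.1 and 11.8 CPM in injured libraries, which overlapped.

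TNR (tenascin-R), the tenascin of the perineuronal net and of oligodendrocyte lineage cells, had 3569, 4066 and 4338 CPM in intact and 3732, 5009, 3937 and 3247 CPM in injured OPC-like nuclei. The groups overlapped there and in neuron-like nuclei, which had 221 to 253 CPM in all 7 libraries. Astrocyte-like nuclei had 165 to 412 CPM, and were above neuron-like ones by their intervals in 5 libraries and below in 1.

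TNC (tenascin-C), a tenascin of development and of reactive tissue, stood at 98.6, 90.2 and 73.8 CPM in astrocyte-like nuclei of intact cervical, thoracic and lumbar cord. It had 312 CPM (247 UMIs) at 7 dpi, 134 CPM (236 UMIs) at 14 dpi, 314 CPM (465 UMIs) at 30 dpi and 375 CPM (213 UMIs) at 6 mpi. All 4 injured libraries were above the intact ones, by 4.22-fold (3.63 to 4.91), 1.82-fold (1.56 to 2.12), 4.25-fold (3.75 to 4.81) and 5.08-fold (4.32 to 5.95) over intact lumbar cord. The difference was not alike in the 2 clusters of astrocyte-like nuclei described further on. At 6 mpi it was 8.83-fold (7.27 to 10.7) in the ITPRID1-led cluster and 1.15-fold (0.675 to 1.85, 18 UMIs) in the SLC14A1-led one. Thinned to 1000 UMIs, 8.63, 8.25 and 6.55% of intact astrocyte-like nuclei had a TNC UMI, and 17.3, 6.69, 24.8 and 22.5% of injured ones, so that the library of 14 dpi lay within the intact shares. The unthinned shares in microglia-like nuclei were 0.142 to 0.659%, and their thinned shares at most 0.240%. Summed microglia and macrophage markers in astrocyte-like nuclei were 20.5, 34.7 and 14.4 CPM in intact and 124, 104, 46.5 and 51.0 CPM in injured libraries, and TNC in microglia-like nuclei was at most 2.02 CPM. Summed ependymal markers there were 217, 222 and 211 CPM against 361, 236, 353 and 239 CPM, and ependymal-like nuclei had 0 to 26.7 CPM of TNC. Both sums were higher in all 4 injured libraries, and their part in the TNC difference was not tested.

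A call over all genes asked for a 2-fold difference from intact lumbar cord, an interval that excludes 1 and a value outside the 3 intact libraries, the same way in all 4 injured libraries, among genes with a mean of at least 10 CPM. No member met it. The counts were 0 of 6 in OPC-like nuclei (0.57% of 8591 genes met it), 0 of 6 in astrocyte-like (1.04%), 0 of 7 in neuron-like (0.13%), 0 of 3 in oligodendrocyte-like (0.931%) and 0 of 1 in microglia-like nuclei (3.33%). HAPLN1 in OPC-like nuclei met the other criteria with a mean below 10 CPM, and TNC in astrocyte-like nuclei missed 2-fold at 14 dpi. At single time points, NCAN and TNC were called higher and VCAN lower in astrocyte-like nuclei at 7 dpi (3 of 6, against 15.5% of 9338 genes), NCAN higher at 14 dpi (1 of 6, 5.87%), NCAN and TNC at 30 dpi (2 of 6, 8.09%), and TNC at 6 mpi (1 of 6, 12.4%). In the SLC14A1-led cluster alone the calls of NCAN at 7 dpi and TNC at 6 mpi were lost. VCAN was called higher in microglia-like nuclei at 7 and 30 dpi (1 of 1, against 11.9 and 12.4% of 8554 genes), and lower in neuron-like nuclei at 14 dpi (1 of 7, 1.01% of 9233 genes). In OPC-like nuclei 0 of 6 were called at any time point (6.94, 4.63, 5.55 and 8.64% of genes at 7, 14 and 30 dpi and 6 mpi).

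A milder criterion, set after the values were seen, asked for all 4 injured libraries outside the intact range with every interval excluding 1. VCAN (lower) and PTPRZ1 (higher) met it in OPC-like nuclei, 2 of 6 members against 4.31% of genes, and PTPRZ1 and TNC (higher) in astrocyte-like nuclei, 2 of 6 against 5.26%. NCAN and CSPG5 (lower) met it in neuron-like nuclei, 2 of 7 against 13.8%, where the summed neuron markers were also lower, at 3460, 3659 and 3695 CPM in intact and 3225, 3282, 3294 and 2941 CPM in injured libraries. The median log2 ratio of the 6 tested members in OPC-like nuclei was -0.03, 0.11, -0.01 and -0.02 at the 4 time points, against 0.11, 0.00, 0.02 and 0.11 over all genes. In astrocyte-like nuclei that of 6 members was 0.00, 0.39, 0.39 and 0.01, against 0.13, 0.05, 0.05 and 0.11. In oligodendrocyte-like nuclei that of 3 members (VCAN, PTPRZ1 and TNR) was 0.58, 0.21, 1.93 and 2.64, against 0.11, -0.01, 0.01 and 0.12, and without the PTN-led cluster 0.64, -0.17, -0.47 and 0.05. In neuron-like nuclei that of 7 members was -0.38, -0.29, -0.23 and 0.06, against 0.03, -0.04, -0.03 and 0.03.

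**Figure D2:**
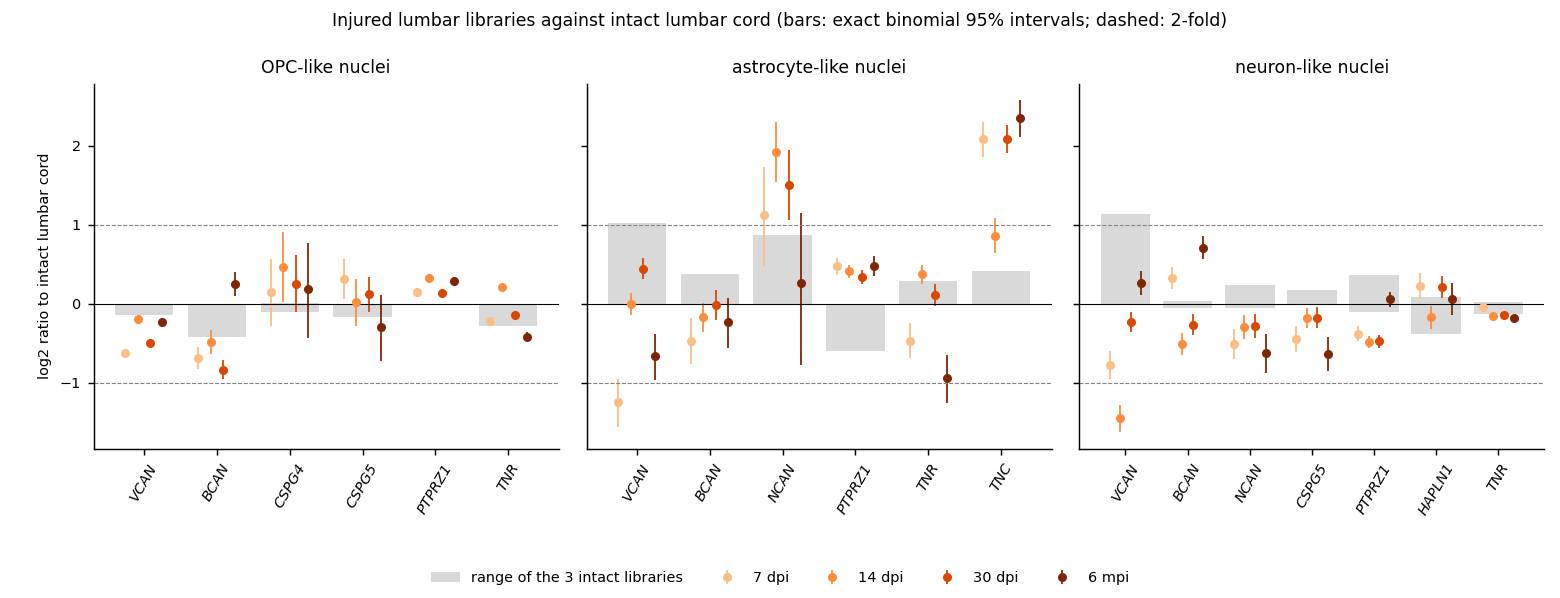
Log2 ratio to intact lumbar cord at 7, 14 and 30 dpi and 6 mpi, with 95% intervals that cover counting error only. Drawn are the members with a mean of at least 10 CPM in the class, for OPC-like, astrocyte-like and neuron-like nuclei. TNC in astrocyte-like nuclei lies above 0 at all 4 times. HAPLN1 in OPC-like nuclei, with a mean below 10 CPM, is not drawn.

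Astrocyte-like nuclei lay in 2 clusters, an SLC14A1-led one of 2752 nuclei and an ITPRID1-led one of 1422, with SLC1A2 among its leading genes. They were also clustered again without the members and named by markers of white-matter-type (IL33, GFAP, CD44) and gray-matter-type (SLC1A2, ITPRID1, SLC6A11, GRM3) astrocytes. VCAN separated these types, with 689, 880 and 665 CPM in white-matter-type nuclei of intact cervical, thoracic and lumbar cord against 6.49, 13 and 5.51 CPM in gray-matter-type nuclei. BCAN leaned the same way (320, 346 and 304 against 100, 104 and 93.9 CPM) and PTPRZ1 the other way (540, 523 and 575 against 783, 783 and 806 CPM). TNC had 128, 113 and 101 CPM in white-matter-type and 65.9, 88.3 and 49.9 CPM in gray-matter-type nuclei, which themselves fell into a COL4A3-led sub-cluster with 110 CPM and a GABBR2-led one with 5.25 CPM.

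These names do not separate type from injury. GFAP, a marker of the white-matter type, had 1225, 1311 and 935 CPM in all astrocyte-like nuclei of intact cord and 4846, 2758, 2958 and 3314 CPM after injury, and CD44 was above the intact range at 7, 14 and 30 dpi. Injured libraries held 0, 3, 1 and 4 nuclei named gray-matter-type, against 381 in intact lumbar cord, but 40, 163, 49 and 77 nuclei of the ITPRID1-led cluster, against 467. Most injured nuclei lay in a SERPINA3-led sub-cluster of white-matter type (231 injured of 272 nuclei) and in an AQP6-led one (295 injured of 296), which scored highest for gray matter and stayed unnamed because it also carried markers of white matter. TNC stood at 239 and 248 CPM in these, NCAN at 58.5 and 38.1 CPM, PTPRZ1 at 787 and 1053 CPM and VCAN at 545 and 45.6 CPM, so that VCAN differed between them in the same direction as between the intact types.

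The 2 clusters were therefore read apart, a choice made after the values were seen. In the ITPRID1-led cluster TNC had 63.6, 93.9 and 53.6 CPM in intact cervical, thoracic and lumbar cord and 173, 141, 360 and 473 CPM at 7, 14 and 30 dpi and 6 mpi. It was above the intact libraries in all 4, by 3.23-fold (2.41 to 4.28), 2.64-fold (2.15 to 3.23), 6.72-fold (5.53 to 8.14) and 8.83-fold. TNC was the 1 of 6 members that met the 2-fold call in all 4 injured libraries there, as did 1.42% of 8958 genes. Gray-matter-type nuclei were uneven in TNC, with 110 CPM in the COL4A3-led and 5.25 CPM in the GABBR2-led sub-cluster (209 and 172 nuclei in intact lumbar cord). The injured levels were above both, with 141 CPM at 14 dpi the nearest. The part of this mix in the folds and in the call was not tested. In the SLC14A1-led cluster TNC was 4.29-fold (3.56 to 5.14), 1.20-fold (0.915 to 1.55), 2.86-fold (2.42 to 3.36) and 1.15-fold over intact lumbar cord, and 0 of 6 members met the call (0.864% of 9496 genes). NCAN in the ITPRID1-led cluster was 4.24-, 3.65-, 3.77- and 1.10-fold over intact lumbar cord at the 4 time points, and in the SLC14A1-led one 1.12-, 4.5-, 2.11- and 1.68-fold.

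VCAN differed between the clusters. In the SLC14A1-led cluster it had 659, 673 and 644 CPM in intact and 208, 696, 572 and 584 CPM in injured libraries, with a ratio to intact lumbar cord of 0.323 (0.258 to 0.399) at 7 dpi. In the ITPRID1-led cluster it had 15.2, 33.3 and 9.23 CPM in intact and 16.5, 76.2, 77.7 and 26.7 CPM in injured libraries, on 6 to 89 UMIs. PTPRZ1 was above the 3 intact libraries in all 4 injured ones in both clusters, by 1.20 to 1.43 times intact lumbar cord in the ITPRID1-led and 1.25 to 1.73 times in the SLC14A1-led one. Among white-matter-type nuclei alone TNC at 6 mpi was 1.27-fold (0.719 to 2.10, 16 UMIs) and NCAN at 7 dpi 1.20-fold (0.594 to 2.23, 12 UMIs).

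**Figure D3:**
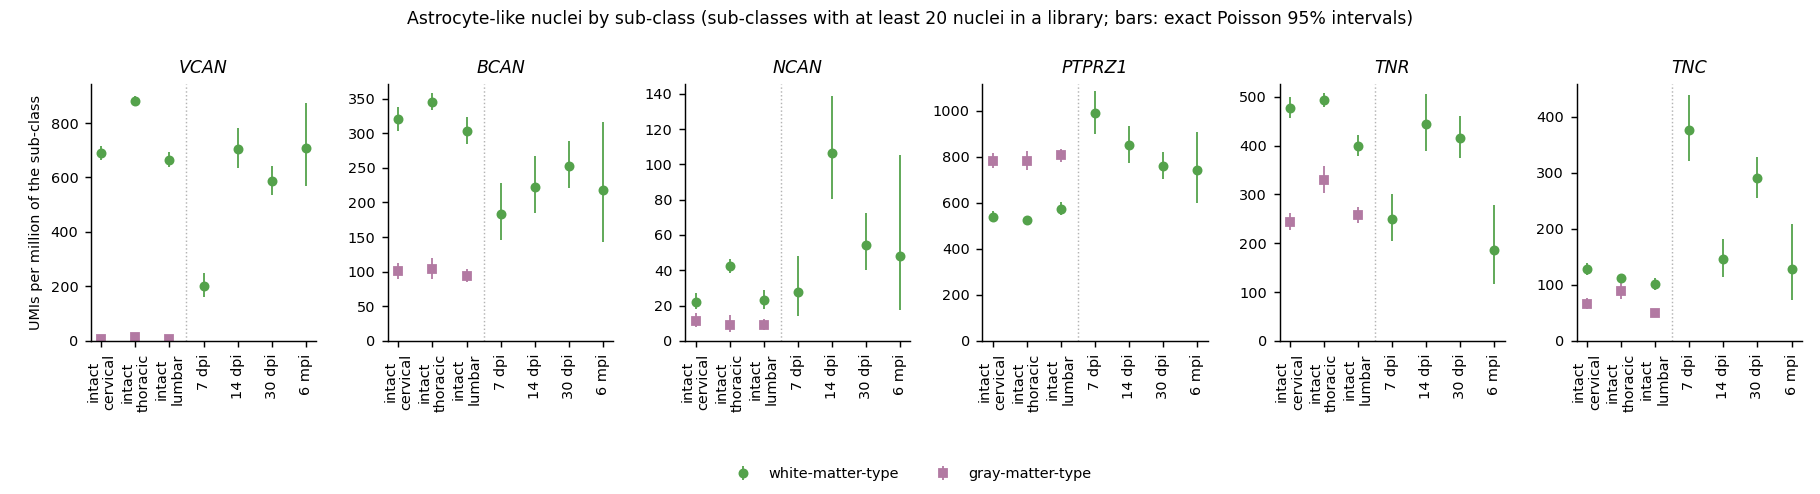
Levels of VCAN, BCAN, NCAN, PTPRZ1, TNC and TNR, in UMIs per 1000000, in white-matter-type and gray-matter-type astrocyte-like nuclei with 95% Poisson intervals. A type is drawn where a library held at least 20 of its nuclei, which leaves out the gray-matter type in the injured libraries. Unnamed nuclei are not drawn. VCAN lies above 600 in intact white-matter-type nuclei and below 20 in intact gray-matter-type nuclei. GFAP, higher in all 4 injured libraries, is among the markers that named the types.

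Neuron-like nuclei were clustered again without the members into 35 sub-clusters, in which the net genes were unevenly spread. A FOXP2-led sub-cluster of 666 nuclei (7.20% of them) carried markers of more than 1 transmitter and stayed unnamed. It held 37.7% of the ACAN UMIs and 40.8% of the HAPLN1 UMIs, shares that also grow with the depth of its nuclei. Its levels were 27.0 and 33.5 CPM, against 10.0 and 11.5 CPM over all neuron-like nuclei and 3.86 and 2.56 CPM in the median sub-cluster. ACAN there stood at 33.3, 40.8 and 31.9 CPM in intact cervical, thoracic and lumbar cord and at 24.5, 18.2, 20.5 and 33.2 CPM at 7, 14 and 30 dpi and 6 mpi. In the other neuron-like nuclei it had 9.63, 6.56 and 8.82 CPM against 7.14, 5.82, 5.85 and 4.24 CPM, so the sub-cluster was above the rest in all 7 libraries. HAPLN1 in the same sub-cluster had 27.6, 37.6 and 34.4 CPM in intact and 29.0, 29.4, 46.5 and 34.7 CPM in injured libraries, with no separation. A TFAP2B-led inhibitory sub-cluster of 468 nuclei was next for both, with 19.1 CPM of ACAN and 17.5 CPM of HAPLN1.

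Over the 35 sub-clusters, pooled over libraries, log2(CPM + 1) of ACAN correlated with that of BCAN at r = 0.88 (Spearman's rho 0.87), HAPLN1 at 0.73 (0.66), TNR at 0.56 (0.57), NCAN at 0.25 (0.21) and VCAN at -0.08 (-0.08). The sub-clusters share libraries and differ in depth, and these correlations, computed after the sub-clusters had been seen, describe them without a test. TNC followed another pattern, with 37.2% of its UMIs in neuron-like nuclei in 1 excitatory sub-cluster of 272 nuclei, at 122 CPM against a median of 0.951 CPM. By library its level there was 131, 65.9 and 110 CPM in intact and 147, 102, 141 and 183 CPM in injured cord, and 3.37 to 6.17 CPM in the remaining neuron-like nuclei. These leave out an unnamed TAC3-led cluster of 591 nuclei with 350 TNC UMIs at 27.0 CPM. In a finer clustering it scored highest for neuron markers. PTPRZ1 peaked in an inhibitory sub-cluster of 204 nuclei with PAX3 among its leading genes, at 244 CPM against a median of 32.8 CPM. The highest VCAN and BCAN levels, 129 and 54.7 CPM, were in an unnamed sub-cluster of 91 nuclei led by ALDH1A1 and with ETNPPL, a gene of astrocytes, among its leading genes.

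**Figure D4:**
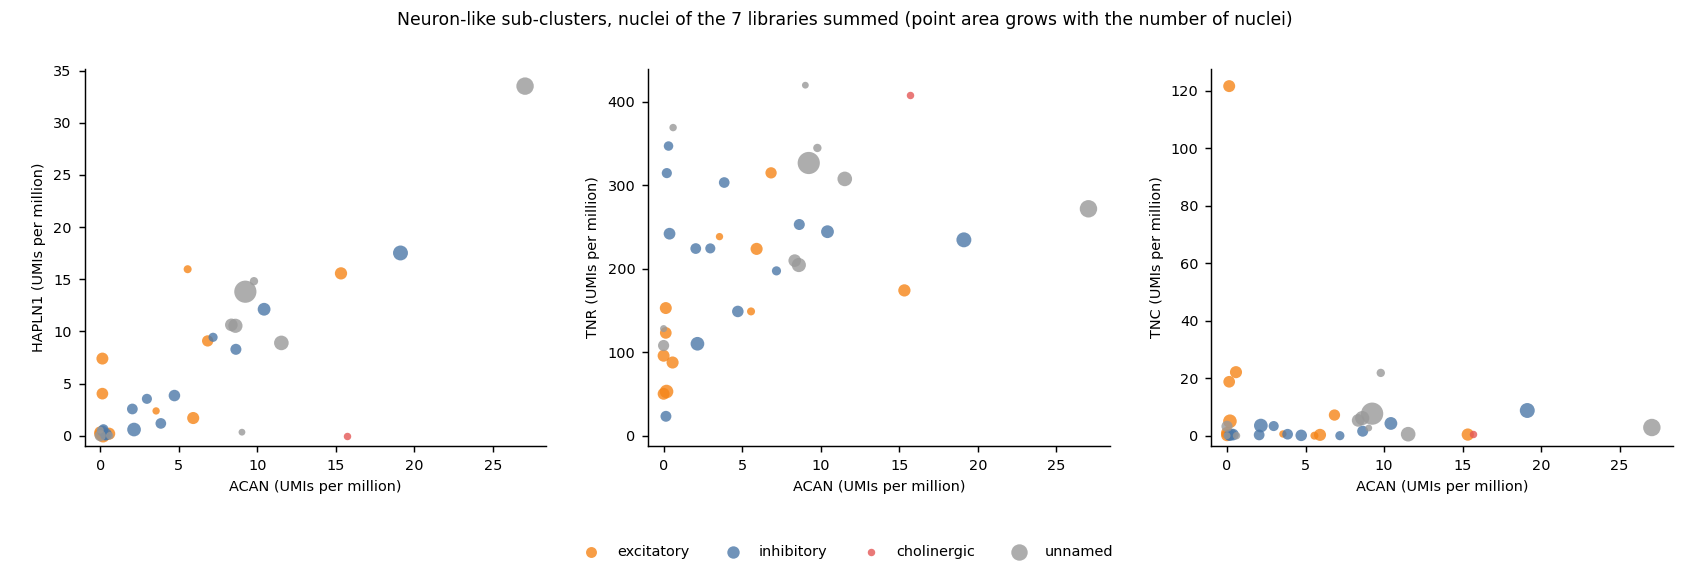
Levels of HAPLN1, TNR and TNC, each against that of ACAN, in UMIs per 1000000, in the 35 sub-clusters of neuron-like nuclei pooled over the 7 libraries. Point area grows with the number of nuclei, colour gives the name of the sub-cluster, and no intervals are drawn. The FOXP2-led sub-cluster is highest for ACAN (27.0) and HAPLN1 (33.5), and 1 excitatory sub-cluster for TNC (122).

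Nuclei with cholinergic markers had ACAN UMIs and no HAPLN1 UMIs. A cluster of 91 neuron-like nuclei, led by SLC28A2 and with CHAT among its leading genes, had 0 HAPLN1 UMIs in each of the 7 libraries, of 11040183 UMIs in all, where 3 counts would be 0.272 CPM. The same cluster had HAPLN4, the brain link protein of adult nets, at 22.5 CPM, TNR at 410 CPM and BCAN at 30.8 CPM. Of the link proteins, HAPLN4 was at similar levels in excitatory, inhibitory and cholinergic sub-clusters (19.1, 20.3 and 22.8 CPM), and HAPLN1 at 5.98, 6.52 and 0 CPM. A lack of HAPLN1 was not particular to cholinergic nuclei. A UCN3-led neuron-like cluster of 267 nuclei had 0 HAPLN1 UMIs and a CRHR2-led one of 408 nuclei had 1, both with 0 ACAN UMIs. ACAN in this cholinergic cluster had 22.6 CPM (63 UMIs), 34.6 CPM (33 UMIs) and 12.6 CPM (29 UMIs) in intact cervical, thoracic and lumbar cord, and 10.9 CPM (13 UMIs), 5.88 CPM (12 UMIs), 5.72 CPM (5 UMIs) and 2.23 CPM (2 UMIs) in the injured libraries. The injured libraries were all below the intact ones, in 6 to 25 nuclei a library. So were those of 7.37% of 8944 genes with a mean of at least 10 CPM and for 4.54% of 4380 genes with a mean of 5 to 20 CPM in this cluster. The interval of intact lumbar cord (8.46 to 18.1 CPM) overlapped those of 7, 14 and 30 dpi and lay above that of 6 mpi (0.270 to 8.05 CPM). ACAN was singled out here after its values were seen. CHAT itself, the choline acetyltransferase gene, was also lower in the injured libraries (110, 121 and 95.8 against 70.6, 68.7, 91.5 and 90.2 CPM), while TNR had 397, 277 and 315 against 528, 488, 518 and 400 CPM.

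Dividing OPC-like nuclei numbered 69 at 7 dpi and at most 18 in any other library. At 7 dpi they had less of 4 members than the other OPC-like nuclei of the same library, with 1215 against 2714 CPM of VCAN, 1755 against 4406 CPM of TNR, 64.4 against 301 CPM of BCAN and 5.08 CPM (3 UMIs) against 40.4 CPM of CSPG4. PTPRZ1 was nearer, at 2697 against 3314 CPM. Outside the dividing cluster the VCAN level at 7 dpi was still below the intact ones (3242, 3592 and 3578 CPM), and HAPLN1 had 12.5, 12.1 and 14.9 CPM in intact and 1.73, 1.19, 6.12 and 2.16 CPM in injured OPC-like nuclei.

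Other genes of the matrix were read from a list of 69 by role, of which 68 were measured: synthesis of the chains, their sulfation, hyaluronan, other link proteins and tenascins, proteases and inhibitors, receptors and ligands, and other proteoglycans. The 2-fold call in all 4 injured libraries was met by 1 of 22 tested in oligodendrocyte-like, 1 of 30 in OPC-like, 0 of 32 in astrocyte-like, 2 of 21 in microglia-like and 0 of 30 in neuron-like nuclei, against 0.931, 0.57, 1.04, 3.33 and 0.13% of all genes. UST, which sulfates uronic acid in chondroitin and dermatan sulfate, was lower in oligodendrocyte-like nuclei, with 145, 153 and 172 CPM in intact and 30.2, 9.34, 22.6 and 78.5 CPM in injured libraries. Intact and injured nuclei of this class lay largely in different clusters. In a finer clustering a CPB1-led one held 27, 5 and 36 nuclei of the intact and 2023, 812, 1445 and 1012 of the injured libraries. The part of this in the UST difference was not tested. SPOCK1 (testican), a proteoglycan, was lower in OPC-like nuclei, with 203, 178 and 237 CPM against 87.9, 104, 81.4 and 89.6 CPM. In microglia-like nuclei CHST15, which makes the doubly sulfated chondroitin sulfate E, was higher, with 4.98, 5.15 and 5.67 CPM against 17.0, 21.0, 43.7 and 47.1 CPM. MMP14, a membrane-bound metalloprotease, had 2.49, 2.48 and 1.48 CPM there against 12.5, 8.18, 35.5 and 35.7 CPM. Both CHST15 and MMP14 were below 10 CPM in all 3 intact libraries. Their means of 20.7 and 14.0 CPM passed 10 CPM only through the injured libraries. The 2 of 21 in microglia-like nuclei thus rest on the same values that admitted these genes. That every injured library lay beyond the 3 intact ones is part of the call that chose UST, SPOCK1, CHST15 and MMP14.

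Genes most like each member were read over the 35 sums of 5 classes in 7 libraries, by Pearson's correlation of log2(CPM + 1) among 10936 genes. The sums of a class are not independent, so the values mainly describe the class pattern. The closest were PRRX1, PTPRZ1 and ATOH8 for VCAN (0.93 each), PTPRZ1, CRISPLD1 and IRX1 for BCAN (0.98 each) and MAOB, ABLIM1 and MAPK4 for NCAN (0.97, 0.96 and 0.96). ACAN was closest to HECW1, TENM1 and HS6ST3 (0.98, 0.97 and 0.97), CSPG4 to BEST3, DLL3 and CREB3L1 (0.99, 0.98 and 0.98), and CSPG5 to VSTM2B, PCDH15 and SLC1A1 (0.97, 0.97 and 0.96). PTPRZ1 was closest to BCAN, CRISPLD1 and IRX1 (0.98, 0.97 and 0.97), TNR to SLC22A3, LAMA4 and CACNG4 (0.99, 0.98 and 0.98), and TNC to CLDN10, SRPX and ITGA7 (0.97 each). HAPLN1 was closest to RPH3A, CAMK4 and CDH18 (0.94, 0.90 and 0.89), and the values of CAMK4 and CDH18 were the lowest given here.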

How the data were processed

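Nuclei were isolated with a glass dounce in lysis buffer and run on the 10x Chromium V3 platform, with 1 library per group. The authors aligned reads to Mmul_10 with Cell Ranger 6.0.0 and deposited UMI counts per nucleus, whole and not normalised. Their doublet removal and integration in Seurat were not rerun here, and the release of the annotation is not given in the sources used here.

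Barcodes were required to have more than 500 genes and 1000 UMIs, less than 10% of UMIs from mitochondrial genes and less than 5% from hemoglobin genes, which removed 2248, and the 5% with the highest doublet score of each library were removed (3354 nuclei). From 2000 variable genes without the 10 members, 30 principal components and 20 neighbours gave Leiden clusters (resolution 1, seed 1, no integration). Python 3.11.15, scanpy 1.11.5, leidenalg 0.10.2, scikit-learn 1.9.0, NumPy 2.4.6 and SciPy 1.17.1 were used. Clusters were named by marker scores, with a floor of 0.3 on the second score set after the clusters were seen, and free RNA was not subtracted. UMIs were summed per class and library and expressed per 1000000 UMIs of that sum (CPM). Intervals are exact Poisson for levels, exact conditional binomial for ratios and Clopper-Pearson for shares, all at 95% and for counting error only. The limit for a count of 0 is 3 counts. The range of the 3 intact segments is no replicate error. The call and the intervals were also run on simulated counts, the call with planted changes. These counts held counting error alone, with no difference between animals, segments or library preparations. They do not show how the call treats such differences.

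The members and the gene lists were chosen with earlier results of these data known. Genes named are the 10 members, list genes called in all 4 injured libraries of a class, and the 3 genes most like each member, and any other gene was named after its values were seen. Alternatives tried are other clusterings, naming, scaling, depth and doublet filters, thresholds and the reference of the ratios.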

Additional observations from a re-analysis of the deposited data

Results flagged for a closer look

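Nuclei of unnamed clusters entered no comparison, and 4 levels there, on more than 3 UMIs, stood above those of all but at most 1 of the 5 classes, pooled over libraries. VCAN had 700.04 CPM in a LAMA2-led cluster of 85 nuclei that carried markers of both fibroblasts and pericytes. Of its 326 VCAN UMIs, 208 came from intact cervical cord, and without that library the level was 415 CPM, below the 440 CPM of astrocyte-like nuclei, so that this value rests on 1 library. ACAN had 9.96 CPM and HAPLN1 15.9 CPM in an IL1RAPL2-led cluster of 875 nuclei with low UMI counts, and TNC had 27.0 CPM in a TAC3-led cluster of 591 nuclei. These are values of clusters pooled over the 7 libraries, and no difference between groups was read from them.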

How the results depend on the processing

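With 1 library per group, no result has a replicate check. Counts of members called in all 4 injured libraries were 0 in each of the 5 classes. They became 1 in OPC-like nuclei (HAPLN1) with no minimum mean CPM (0.396% of genes) and 1 in astrocyte-like nuclei (TNC) at 1.5-fold (2.67%), and 1 (TNC) in the ITPRID1-led astrocyte-like cluster alone (1.42%). Leaving out each injured library in turn gave 0 to 1 in astrocyte-like nuclei (TNC without 14 dpi, as for 1.73% of genes, and NCAN without 6 mpi, 1.94%) and 0 in the other 4 classes. This setting, leaving out the PTN-led or the dividing cluster, white-matter-type nuclei alone, each astrocyte-like cluster alone and naming with no floor were chosen after seeing the data. Naming with no floor unnamed 2 microglia-like clusters (1773 and 1243 nuclei) and the dividing OPC-like one (113), changed none of these counts, and gave microglia-like VCAN levels of 81.0, 9.93, 28.8 and 6.18 CPM in the injured libraries. Members highest in OPC-like nuclei numbered 6 and were 4, without BCAN and PTPRZ1, when each nucleus was named alone (3 of 8 at 10 CPM or more, against 1.8% of genes). Of 740 ratios recomputed, 58 changed sign, 35 of them ratios whose interval excluded 1, and 12 of the 35 when each nucleus was named alone. Of ratios past 2-fold and outside the intact range, 1 changed sign, that of HAPLN1 in OPC-like nuclei at 30 dpi, with a log2 ratio of 0.11 when each nucleus was named alone, where nuclei of neuron-like clusters held 71.5% of the UMIs of the class. No paired analysis was possible because each group has 1 library and no numbers are shared.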
